A study of Macaca mulatta with 22 samples.

Results

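The genes of the interferon response and of the IRF, STAT and TRIM families were followed in dominant ovarian follicles of rhesus macaques (Macaca mulatta) through the hours before and at ovulation. Members were taken by name: interferon receptor chains, STAT and IRF transcription factors, the interferon-induced IFI, IFIT, IFITM, ISG, MX, OAS and GBP genes, and all numbered TRIM genes that the array annotation gives as the single gene of a probe set. The rule found 78 genes among the 14132 single-symbol genes of the array: 1 receptor chain, 5 STAT genes, 7 IRF genes, 23 interferon-induced effectors and 42 TRIM genes. Each gene was read from the probe set with the highest mean over the 22 arrays, and no gene was dropped for a low level, so all 78 were tested. IRF9, IFNAR1, IFNGR1 and IFNGR2 are not analysed here. The rule itself uses gene names and no measured values, but it was chosen with earlier results of these data known. The choice of probe set used the array means.

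Interferons bind receptors on the cell surface whose Janus kinases phosphorylate STAT proteins, and the STATs and IRFs then switch on a large set of antiviral genes. IFIT proteins bind foreign RNA, OAS enzymes start RNA decay, MX proteins trap viral particles, GBPs attack enclosed pathogens, and ISG15 is a ubiquitin-like tag. STAT3 and STAT5 mainly serve cytokines and growth factors other than interferon, and most TRIM genes encode ubiquitin ligases, only some of which take part in antiviral defence. Ovulation is known as an inflammation-like event in which the gonadotropin surge brings leukocytes and cytokine signals into the follicle wall.

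Once estradiol had reached 100 to 120 pg/ml, every female was given the GnRH antagonist Acyline together with FSH and LH, both recombinant human proteins at 30 IU. Follicles at 0 h (n = 6) had no further treatment, while those at 12 h (n = 4), 24 h (n = 4) and 36 h had also received 1000 IU of recombinant human chorionic gonadotropin (hCG), which stands in for the natural surge. The 36 h follicles were either unruptured (n = 4, replicates 1 to 4) or ruptured (n = 4, replicates 5 to 8); ages are not stated in the labels. Each array carries RNA of 1 whole follicle, and nothing states for each array that the follicles came from different animals, so the p-values measure the spread between these samples. The titles name ovulatory follicles, whereas most sample descriptions speak of the corpus luteum. Follicle markers were present at 0 h: the lowest mean of the 6 granulosa markers was 7.70 and that of the 3 theca and smooth muscle markers 11.67, on the log2 scale.

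Values are log2 of the deposited intensities, so that a difference of 1 is a 2-fold difference. Array medians lay between 26.1 and 26.7 on the linear scale. A difference between the 3' and 5' ends of control transcripts, which rises as RNA breaks down, was largest on 12 h replicate 3 (0.482) and lay between 0.216 and 0.375 on the others. The median of all probe set means was 4.63, and 22 of the 78 members lay below it. No detection calls were used, so values in that range are not read as expression.

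Over the 5 groups 22 of 78 members passed limma's moderated F test at a Benjamini-Hochberg adjusted p under 0.05, or 28.2%, against 29.0% of all genes. By role, the effectors gave 10 of 23, the STAT genes 2 of 5, the IRF genes 0 of 7, the TRIM genes 10 of 42 and the receptor chain 0 of 1. At 12 h against 0 h 6 members rose and 5 fell, against 6.5% and 7.8% of all genes in these directions. From 12 to 24 h 4 rose and 3 fell, against 5.84% and 5.02%. Between 24 h and unruptured follicles at 36 h no member passed in limma, and 0.0% of all genes rose and 0.00708% fell. An unadjusted limma p under 0.05 was found in 9 of the 78 members. The share of all genes at that looser threshold was not computed.

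Ruptured against unruptured follicles at 36 h showed 5 members higher and 4 lower, against 6.47% and 7.67% of all genes. Ruptured follicles against 0 h had 5 higher and 5 lower, against 9.43% and 11.8%. The members' shares thus stood near or below the background in every comparison, and the median change of the 78 was 0.08 at 12 h and -0.14 at rupture, beside 0.00 and -0.06 over all genes. Fitted on the compared groups alone, 6 members passed at 12 h, 0 from 12 to 24 h and 2 at rupture, or 7.69%, 0% and 2.56%, beside 7.88%, 0.545% and 3.47% of all genes in the same fits. Leaving out single arrays brought the count to 7 at 12 h (0 h replicate 3), to 3 from 12 to 24 h (24 h replicate 2; 4 for each of the 12 h replicates 1 and 4 and the 24 h replicates 1 and 3) and to 5 at rupture (unruptured replicate 2 or ruptured replicate 5). Members did not share 1 direction: in each comparison with calls some rose and others fell.

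**Figure D1:**
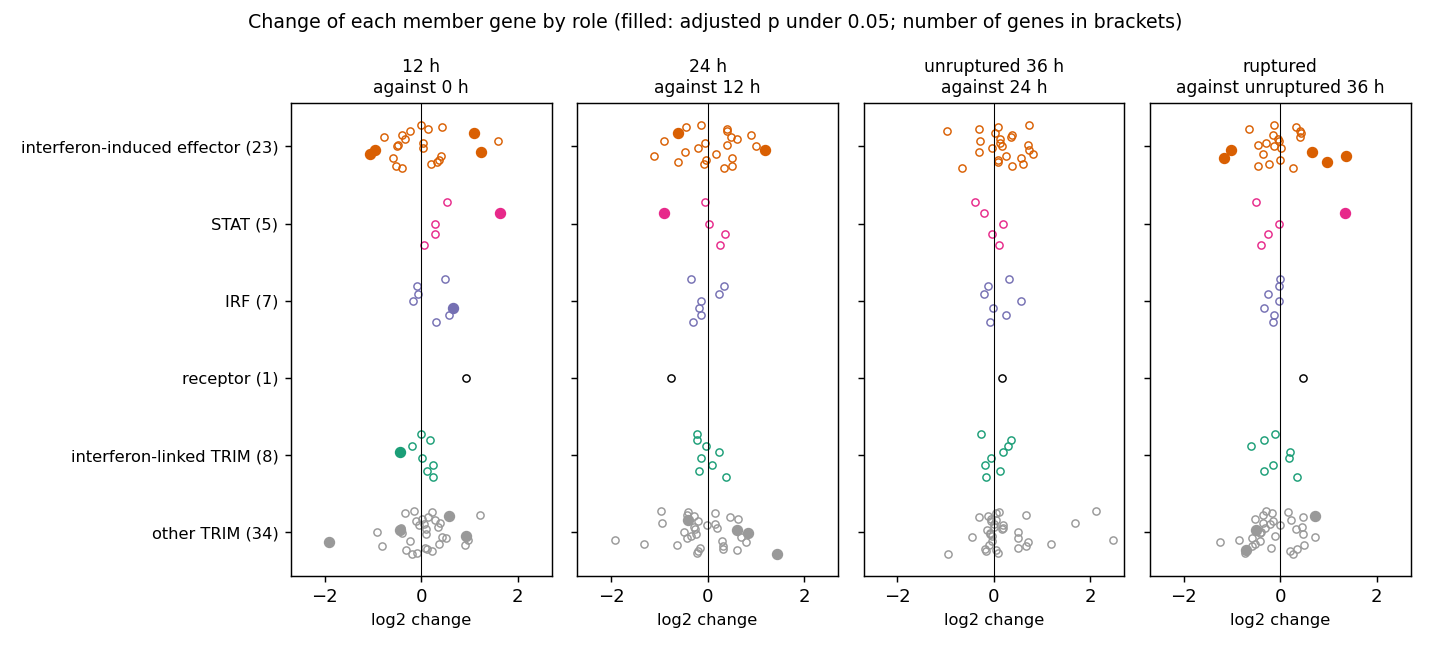
Log2 change of each of the 78 member genes (points) by role in 4 comparisons of follicle groups; filled points have an adjusted p under 0.05 in limma. Filled points lie on both sides of 0 at 12 h (6 and 5), from 12 to 24 h (4 and 3) and at rupture (5 and 4), and none is filled between 24 h and unruptured 36 h.

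IFNAR2, the signalling chain of the type I interferon receptor, was the only receptor member. It stood at 5.83 (lowest), 6.73 (median) and 7.39 (highest) at 0 h and at 7.61 ± 0.42 (SD, n = 4) at 12 h. The groups overlapped, and the change of 0.93 ± 0.29 (SE) just missed the threshold (limma adjusted p = 0.0502). Of 12 listed interferon genes 4 were measured (IFNB1, IFNG, IFNK and IFNL1). Their group means lay between 1.30 and 3.34, below the median probe set, and none passed in any comparison.

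STAT3, the factor activated by interleukin 6 type cytokines, had the clearest pattern of all members. It measured 6.46, 6.98 and 7.35 (lowest, median, highest) at 0 h. The 12 h follicles read 8.65, 8.41, 8.39 and 8.83, the 24 h follicles 7.50, 7.29, 7.73 and 8.18, and the unruptured 36 h follicles 7.48, 7.18, 7.70 and 7.52. Ruptured follicles read 9.03, 8.47, 9.15 and 8.61. Every 12 h follicle lay above every 0 h follicle and every 24 h follicle, and every ruptured follicle above every unruptured one.

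The STAT3 level rose by 1.64 ± 0.20 (SE) at 12 h, or 3.11-fold (limma adjusted p = 7.6e-05), and fell by 0.90 ± 0.22 by 24 h (adjusted p = 0.0198). It was 1.34 ± 0.22 higher in ruptured than in unruptured follicles (adjusted p = 0.000863) and 1.88 ± 0.20 higher than at 0 h (adjusted p = 6.37e-06). In bulk tissue, more cells of a type and more RNA per cell cannot be told apart. The fall at 24 h was lost on leaving out either of the 12 h replicates 1 and 4 or the 24 h replicates 1 and 2 (largest adjusted p = 0.0729), in the fit of these 2 groups alone (0.111) and with the RNA index as a covariate (0.0642); the other 3 calls held in those fits.

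STAT5B, one of the STATs of prolactin and growth hormone signalling, passed the F test (adjusted p = 0.0175) without passing in a single comparison. Its means rose from 7.73 ± 0.20 (SD, n = 6) at 0 h to 8.36 ± 0.25 (n = 4) at 24 h and 8.32 ± 0.26 in unruptured follicles, with 8.07 ± 0.10 in ruptured ones. These values are from its brightest probe set; of its 4 probe sets 2 were called higher in ruptured follicles than at 0 h, with changes from 0.30 to 0.91. STAT6, which serves interleukin 4, was 0.39 ± 0.14 (SE) lower after rupture (adjusted p = 0.0969), with no overlap between the groups (8.43 to 8.73 against 8.78 to 9.03). The 3 probe sets of STAT6 ran from -0.39 to 0.09 at rupture, none called. From 12 to 24 h they ran from -0.11 to 0.52, and 1 was called higher. STAT5A ran between group means of 4.92 and 5.44. STAT2, a factor of type I interferon signalling, was dim and variable, with group means from 3.82 to 4.76.

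Of 18 listed genes of Janus kinase signalling and its inhibitors 14 were measured. For their counts, the shares of all genes passing were 14.3% at 12 h, 10.9% by 24 h and 14.1% at rupture. At 12 h 3 rose and 1 fell, led by SOCS3, a feedback inhibitor induced by STAT3 (2.49 ± 0.70 SE higher, adjusted p = 0.0309), and IL6ST, the shared receptor chain of interleukin 6 type cytokines (1.87 ± 0.32 higher, adjusted p = 0.00106). By 24 h 2 rose and 1 fell, with IL6ST 1.27 ± 0.35 lower and the kinase gene JAK2 0.84 ± 0.21 higher. At rupture 2 rose and 2 fell, with SOCS3 3.36 ± 0.77 and IL6ST 1.79 ± 0.35 higher. IL6ST thus had the same sign as STAT3 in both steps. SOCS3 was dim in the lower group of both steps, with means of 2.33 ± 1.67 (SD, n = 6) at 0 h and 2.35 ± 1.41 (n = 4) in unruptured follicles, both below the median probe set, so its differences are not read as exact sizes.

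Among the IRF genes only IRF5, a factor of macrophages and other myeloid cells, passed in a comparison. It measured 5.25, 5.42 and 5.94 (lowest, median, highest) at 0 h and 5.97, 6.36, 6.63 and 5.66 at 12 h. Replicate 4 at 12 h lay within the 0 h range and the others above it. The rise was 0.67 ± 0.19 (SE, limma adjusted p = 0.0343), but it was lost on leaving out any of the 0 h replicates 1, 2, 3 and 6 or the 12 h replicates 2 and 3 (largest adjusted p = 0.129), in the fit of both groups alone (0.113), with the RNA index as covariate (0.0675) and on its most variable probe set (0.22 higher, 0.896).

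IRF1, induced by interferon gamma, was 0.50 ± 0.16 higher at 12 h (adjusted p = 0.0521) and 0.46 ± 0.16 higher in ruptured follicles than at 0 h (adjusted p = 0.0556). IRF7, the amplifier of type I interferon, was 0.57 ± 0.27 higher at 12 h (adjusted p = 0.217). IRF3, which starts the type I response, ran between means of 7.84 and 8.29, IRF2, a repressor of IRF1 targets, between 5.89 and 6.22, and IRF8, a myeloid and B cell factor, between 5.92 and 6.45. IRF4 was dim, with means from 2.50 to 3.07. At rupture all 7 changes on the brightest probe sets lay between -0.33 and -0.0032, with a smallest limma adjusted p of 0.361. Other probe sets of IRF5 and IRF7 reached 0.35 and 0.37 there, without a call.

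The effectors divided by direction. IFITM1, IFI16, OAS1 and ISG20 were high at 12 h or after rupture, while IFIT3, MX1 and ISG15 were low at one or both. IFITM1, a membrane protein that blocks virus entry, measured 10.36, 10.89 and 10.97 (lowest, median, highest) at 0 h and 12.13, 12.06, 12.18 and 11.85 at 12 h. Unruptured follicles read 11.44, 11.08, 11.30 and 11.21, and ruptured ones 12.04, 11.71, 11.86 and 12.08. Neither pair of groups overlapped.

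IFITM1 rose 2.36-fold at 12 h (1.24 ± 0.16 SE on the log2 scale, limma adjusted p = 9.04e-05) and 1.58-fold with rupture (0.66 ± 0.17, adjusted p = 0.0189). Both of its probe sets passed in both steps, but IFITM genes are near-identical and probes may be shared among them. The rupture call was lost without unruptured replicate 2 or ruptured replicate 5 or 8 (largest adjusted p = 0.059) and in the fit of these groups alone (0.0754).

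IFI16, a nuclear DNA sensor, measured 9.85, 10.08 and 10.20 (lowest, median, highest) at 0 h and 11.46, 10.85, 11.47 and 10.83 at 12 h. At 24 h it read 10.63, 10.41, 10.63 and 10.47. All 12 h follicles were above all follicles of the neighbouring times. The rise at 12 h was 1.08 ± 0.16 (SE, limma adjusted p = 0.000269), and 2 of its 3 probe sets passed.

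The fall of IFI16 by 24 h was 0.62 ± 0.17 (adjusted p = 0.0353); it was lost on leaving out 12 h replicate 1, 12 h replicate 3 or any 24 h replicate (largest adjusted p = 0.121), in the fit of both groups alone (0.19), with the RNA index as covariate (0.163) and on its most variable probe set (0.165). Ruptured follicles stood 0.92 ± 0.16 above 0 h (adjusted p = 0.000458) and 0.42 ± 0.17 above unruptured ones (adjusted p = 0.142).

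**Figure D2:**
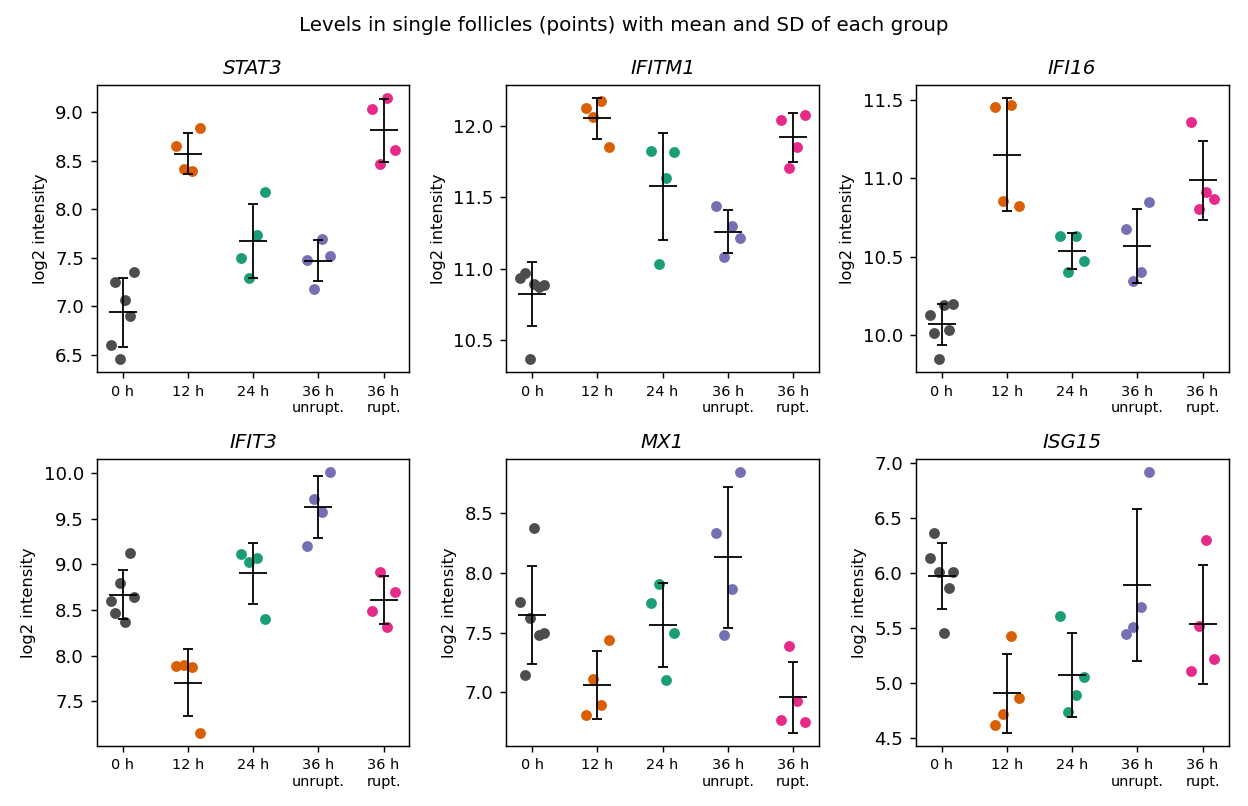
Log2 intensity of 6 member genes in each follicle (points) by group, with group mean and SD (bars). STAT3, IFITM1 and IFI16 are highest in the 12 h and ruptured groups, IFIT3 is lowest at 12 h (mean 7.70) and highest in unruptured follicles (9.63), and 1 unruptured follicle stands apart in ISG15 (6.92).

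OAS1, an activator of RNA decay, measured 8.62, 8.58, 8.40 and 8.82 in unruptured and 9.48, 10.08, 10.32 and 8.40 in ruptured follicles. Ruptured replicates 5 to 7 lay above all unruptured follicles, and replicate 8 lay at the level of the lowest. OAS1 was 0.97 ± 0.28 (SE) higher with rupture (limma adjusted p = 0.0334) and 0.78 ± 0.26 above 0 h (adjusted p = 0.0452); 2 of its 5 probe sets passed in each, with changes at rupture from -0.35 to 1.68. The first call was lost without unruptured replicate 1, 2 or 3 or ruptured replicate 5, 6 or 7 (largest adjusted p = 0.117), the second without any 1 of 19 of the 22 arrays (largest 0.194; kept without 0 h replicate 1, 12 h replicate 2 and ruptured replicate 8), and both in the fit of the groups compared (0.248 and 0.183) and with the RNA index (0.0782 and 0.0797).

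ISG20, an exonuclease that degrades RNA, read 6.67, 5.91, 5.79 and 6.11 in unruptured and 7.62, 7.04, 8.30 and 7.00 in ruptured follicles. The groups did not overlap. The difference was 1.37 ± 0.40 (SE, limma adjusted p = 0.0335), lost without unruptured replicate 2, 3 or 4 or ruptured replicate 5 or 7 (largest adjusted p = 0.113), in the fit of both groups alone (0.085) and with the RNA index (0.0952). At 0 h ISG20 spread from 5.94 to 7.46, and ruptured follicles against 0 h gave 0.91 ± 0.36 (adjusted p = 0.1).

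IFIT3, an RNA-binding antiviral protein, moved the other way. It measured 8.38, 8.62 and 9.13 (lowest, median, highest) at 0 h and 7.89, 7.90, 7.88 and 7.16 at 12 h. At 24 h it read 9.11, 9.03, 9.07 and 8.41, in unruptured follicles 9.20, 9.72, 9.58 and 10.02, and in ruptured ones 8.49, 8.92, 8.32 and 8.70. The 12 h follicles were below all others, and each unruptured follicle was above every other follicle of the study.

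IFIT3 fell by 0.96 ± 0.20 at 12 h (limma adjusted p = 0.00513), rose by 1.20 ± 0.22 by 24 h (adjusted p = 0.00302) and was 1.02 ± 0.22 lower in ruptured than in unruptured follicles (log2 change -1.02, adjusted p = 0.00648). The further 0.72 ± 0.22 between 24 h and unruptured follicles did not pass (adjusted p = 0.629), although the groups did not overlap. Of its 3 probe sets 2 passed at 12 h, 3 at 24 h and 1 at rupture, all with the same sign. The calls at 24 h and at rupture were lost in the fit of the compared groups alone (0.0785 and 0.0624).

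MX1, a dynamin-like GTPase that traps viral nucleocapsids, measured 8.33, 7.48, 7.87 and 8.85 in unruptured and 6.77, 7.39, 6.93 and 6.75 in ruptured follicles. The groups did not overlap, and unruptured replicate 4 was highest. The change with rupture was -1.17 ± 0.28 (SE), a 2.25-fold lower level (limma adjusted p = 0.0122), lost in the fit of both groups alone (0.102). At 12 h the change was -0.59 ± 0.26 (adjusted p = 0.187).

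ISG15 measured 5.46, 6.01 and 6.36 (lowest, median, highest) at 0 h and 4.62, 4.72, 5.43 and 4.87 at 12 h. The groups did not overlap. The change was -1.07 ± 0.29 (SE, limma adjusted p = 0.0264), lost on leaving out 0 h replicate 2 or any of the 12 h replicates 1, 2 and 4 (largest adjusted p = 0.0864). Unruptured replicate 4 (6.92) stood above the other unruptured follicles (5.45 to 5.69), and rupture changed ISG15 by -0.36 with overlap between the groups.

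IFI27, IFIT1 and OAS3 passed the F test (adjusted p = 0.0113, 0.0303 and 0.0383) and no single comparison. Each had its lowest mean at 12 h and its highest in unruptured follicles: IFI27, a mitochondrial interferon marker, 10.73 ± 0.56 and 12.01 ± 0.32 (SD, n = 4), IFIT1, which binds uncapped RNA, 5.38 ± 0.57 and 6.56 ± 0.59, and OAS3, the OAS form most tied to RNA decay, 5.72 ± 0.31 and 6.58 ± 0.35. From 12 to 24 h the groups of IFI27 and IFIT1 did not overlap, with changes of 0.91 ± 0.29 and 1.01 ± 0.30 (SE, limma adjusted p = 0.0698 and 0.0536). Those of OAS3 overlapped, with a change of 0.50 ± 0.20 (adjusted p = 0.159).

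The other effectors passed neither the F test nor a comparison. GBP1 and GBP2 had group means between 6.52 and 7.27. MX2, which restricts retroviruses, ran between 5.76 and 6.18, IFI35 between 7.84 and 8.13, IFIT2 between 8.00 and 8.23, and OAS2 between 5.35 and 6.08. IFI44 reached 7.28 ± 0.31 (SD, n = 4) in unruptured follicles from 6.57 ± 0.33 at 24 h (adjusted p = 0.751). IFI27L2 ran between 9.97 and 10.70. GBP6, GBP7, OASL and IFI27L1 lay below the median probe set, with overall means of 2.54, 1.84, 2.95 and 4.50.

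IFI30, a lysosomal reductase of antigen-presenting cells, had the widest spread at 12 h among the brighter effectors. It read 8.01, 8.88 and 9.31 (lowest, median, highest) at 0 h and 9.83, 11.05, 11.94 and 8.49 at 12 h. Replicate 4 lay within the 0 h range and the other 3 above it. The macrophage marker CD68 read 8.21, 9.41, 10.01 and 6.92 in these 4 follicles and PTPRC, the pan-leukocyte antigen CD45, 8.34, 8.60, 9.71 and 7.49, in the same order of follicles as IFI30. CD68 comes from a list with 10 measured markers and did not pass the F test (limma adjusted p = 0.282). The order of the follicles in the other markers of that list is not given, and a link to IFI30 was not tested. The change of IFI30 was 1.58 ± 0.53 (SE, limma adjusted p = 0.0681).

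At 12 h 4 of 10 measured macrophage and monocyte markers rose (CD14, AIF1, TYROBP and LYZ) and none fell, and PTPRC was 1.68 ± 0.37 higher (adjusted p = 0.00677). The summed level of the list ran from 10.65 to 11.47 at 0 h, from 11.17 to 12.60 at 12 h, from 11.43 to 12.52 at 24 h, from 11.40 to 11.92 in unruptured and from 11.20 to 12.01 in ruptured follicles. No list member was at 0, and its dimmest marker had a mean of 2.74 at 0 h. Their part in the changes of IFI30, IRF5, IFI16 and IFITM1 at 12 h was not tested. At rupture none of the 10 passed. Of all genes 14.3% passed at 12 h and 14.1% at rupture.

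Of the other marker lists, neutrophil markers gave 0 of 5 at 12 h and at rupture and 2 of 5 (S100A8 and S100A9) higher in ruptured follicles than at 0 h, and T and NK cell markers 1 of 6 higher at 12 h (KLRD1), 0 at rupture and 1 of 6 lower in ruptured follicles than at 0 h (GZMA). B cell markers gave 0 of 3 and the 1 measured marker of plasmacytoid dendritic cells, the main makers of type I interferon, did not pass in any comparison. Endothelial markers gave 0 of 7 at 12 h and 1 of 7 lower at rupture (TEK). In ruptured follicles 1 of 7 was higher than at 0 h (CDH5). Shares of all genes passing were 14.3% at 12 h, 14.1% at rupture and 21.3% in ruptured follicles against 0 h.

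Granulosa markers gave 1 of 6 lower at 12 h (HSD17B1), 2 lower by 24 h (CYP19A1 and INHBA), 1 higher at rupture (INHBA) and 2 lower in ruptured follicles than at 0 h (CYP19A1 and HSD17B1). Their summed level ran from 12.57 to 13.69 at 0 h, from 11.20 to 13.50 at 12 h, from 10.52 to 11.44 at 24 h, from 10.04 to 12.02 in unruptured and from 12.41 to 13.13 in ruptured follicles, so the ruptured group lay above the unruptured one without overlap. Of the 3 theca and smooth muscle markers TAGLN rose by 0.50 and CYP17A1 fell by 1.89 at 12 h, CYP17A1 fell by 2.33 more by 24 h, and none passed at rupture; against 0 h, ruptured follicles were higher in TAGLN and lower in CYP17A1. Of all genes 14.3% passed at 12 h, 10.9% by 24 h, 14.1% at rupture and 21.3% in ruptured follicles against 0 h. The part of these markers in the members' changes was not tested.

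The 8 TRIM genes listed as linked to interferon gave 1 change at 12 h and none from 12 to 24 h or at rupture. Between ruptured follicles and 0 h 1 changed. Each is 12.5% of the 8, beside 14.3% of all genes at 12 h and 21.3% in ruptured follicles against 0 h. TRIM25, the ligase that activates the RNA sensor RIG-I, measured 9.01, 9.19 and 9.45 (lowest, median, highest) at 0 h and 8.79, 8.70, 8.65 and 8.96 at 12 h. The groups did not overlap. It fell by 0.44 ± 0.11 (SE, limma adjusted p = 0.0153), and 1 of its 4 probe sets passed. The call was lost without 12 h replicate 2 (adjusted p = 0.0501), in the fit of both groups alone (0.0948) and on its most variable probe set (0.672).

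TRIM14, a mitochondrial adaptor of antiviral signalling, measured 5.86, 6.08 and 6.23 (lowest, median, highest) at 0 h and 5.49, 5.53, 5.59 and 5.24 in ruptured follicles. The groups did not overlap. The change was -0.60 ± 0.14 (SE, limma adjusted p = 0.00488) and 2 of 3 probe sets passed; the level in unruptured follicles was 5.58 ± 0.27 (SD, n = 4), close to the ruptured 5.46 ± 0.15.

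TRIM22, an interferon-induced ligase, was 0.60 ± 0.20 lower in ruptured than in unruptured follicles without overlap (8.06 to 8.51 against 8.74 to 9.01, limma adjusted p = 0.0703). TRIM5, the retroviral capsid sensor, ran between group means of 7.39 and 7.74, and TRIM21, the antibody receptor of the cytosol, between 5.94 and 6.29.

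The 34 other TRIM genes gave 2 higher and 2 lower at 12 h, and 3 higher and 1 lower from 12 to 24 h. At rupture 1 was higher and 2 lower, and ruptured follicles against 0 h had 1 higher and 4 lower. In order these are 11.8%, 11.8%, 8.82% and 14.7% of the 34, beside 14.3%, 10.9%, 14.1% and 21.3% of all genes. TRIM16, a ligase tied to the clearance of damaged membranes, was high in the same groups as STAT3. It measured 4.25, 4.35 and 4.59 (lowest, median, highest) at 0 h, 4.80, 4.87, 5.09 and 4.98 at 12 h, 4.24, 4.75, 4.51 and 4.58 in unruptured and 5.24, 5.52, 5.34 and 4.89 in ruptured follicles. Neither the 0 h and 12 h groups nor the unruptured and ruptured groups overlapped, although the levels lie close to the median probe set.

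TRIM16 was 0.56 ± 0.17 (SE) higher at 12 h (limma adjusted p = 0.0414), 0.72 ± 0.19 higher with rupture (adjusted p = 0.017) and 0.87 ± 0.17 higher in ruptured follicles than at 0 h (adjusted p = 0.00135). The first was lost without 12 of the 22 arrays taken one at a time (0 h replicates 1, 2, 3, 4 and 6, all 12 h replicates, unruptured replicates 3 and 4 and ruptured replicate 5, largest adjusted p = 0.108), with 16 added before the log (0.053), with array weights (0.0556) and with the RNA index (0.0625). The second was lost without unruptured replicate 1 or ruptured replicate 6 (largest 0.0642) and in the fit of both groups alone (0.0975).

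TRIM59 was the lowest-lying member with a call. It read 3.21, 4.51 and 4.82 (lowest, median, highest) at 0 h, 2.56, 2.42, 0.80 and 3.89 at 12 h, and 2.59, 2.63, 2.59 and 2.81 in ruptured follicles. At 12 h replicate 4 lay within the 0 h range, and the ruptured follicles were all below it. The changes were -1.91 ± 0.40 (SE, limma adjusted p = 0.00464) and -1.67 ± 0.40 (adjusted p = 0.00671), at levels mostly below the median probe set. The first was lost in the fit of both groups alone (0.0745) and on the most variable probe set (0.234).

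TRIM47 read 5.14, 5.54 and 5.75 (lowest, median, highest) at 0 h and 6.53, 6.28, 7.08 and 5.83 at 12 h, with no overlap. It was 0.92 ± 0.25 (SE) higher (limma adjusted p = 0.0257), which was lost on leaving out 0 h replicate 3, 12 h replicate 1 or 12 h replicate 3 (largest 0.102) and in the fit of both groups alone (0.0531). TRIM68 read 6.29, 6.22, 6.48 and 6.35 in unruptured and 5.53, 5.27, 5.60 and 6.06 in ruptured follicles, again without overlap. Its change of -0.72 ± 0.18 (adjusted p = 0.017) was lost without ruptured replicate 6 (0.0582) and in the fit of both groups alone (0.101).

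From 12 to 24 h TRIM9, a ligase best known from neurons, went from 4.14, 3.68, 2.76 and 2.51 to 4.86, 4.89, 4.73 and 4.40, and TRIM27, a ligase and transcriptional repressor, from 8.67, 8.68, 8.59 and 8.92 to 8.34, 8.19, 8.36 and 8.35. Neither pair of groups overlapped. TRIM9 was 1.45 ± 0.40 (SE) higher (limma adjusted p = 0.0331), and the 12 h values were below the median probe set. It was lost on leaving out any of the 12 h replicates 3 and 4 or the 24 h replicates 1, 2 and 3 (largest 0.114), in the fit of both groups alone (0.116) and with the RNA index (0.114). TRIM27 fell by 0.41 ± 0.10 (adjusted p = 0.0214), lost on leaving out 12 h replicate 4 or 24 h replicate 2 (largest 0.0755), in the fit of both groups alone (0.197) and on its most variable probe set (0.263).

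The remaining called TRIM genes were TRIM41, TRIM45, TRIM28 and TRIM72, named here after their values were seen. TRIM41 fell by 0.43 ± 0.13 (SE) at 12 h (limma adjusted p = 0.0389), rose by 0.62 ± 0.14 by 24 h (0.0107) and was lower in ruptured than in unruptured follicles (-0.49 ± 0.14, 0.0298) and than at 0 h (-0.44 ± 0.13, 0.0232). TRIM45 rose by 0.84 ± 0.20 by 24 h (adjusted p = 0.0140) on its brightest probe set. The other of its 2 probe sets was called lower at 12 h (-0.90), at rupture (-0.80) and in ruptured follicles against 0 h (-0.94). In ruptured follicles against 0 h TRIM28, the corepressor of KRAB zinc finger proteins, fell by 0.51 ± 0.10 (adjusted p = 0.00113) and TRIM72, a membrane repair protein of muscle, by 0.95 ± 0.28 (0.0237).

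The calls of TRIM41 at 12 h (lost on leaving out any of the 0 h replicates 1, 3, 4 and 5 or the 12 h replicates 3 and 4), at rupture (without unruptured replicate 1, 2 or 4 or ruptured replicate 5) and against 0 h (without 0 h replicate 4 or ruptured replicate 5) reached an adjusted p of 0.137, 0.111 and 0.108. That of TRIM45 was lost without 12 h replicate 1 or 24 h replicate 3 (0.0547), and that of TRIM72 without 0 h replicate 5 or ruptured replicate 7 or 8 (0.111). The 12 h call of TRIM41 was also lost with array weights (0.0617) and, like its 24 h call, with the RNA index (0.0760 and 0.0588), and those of TRIM45 and TRIM72 on their most variable probe sets (0.136 and 0.0678). In the fit of the compared groups alone all calls of TRIM41, TRIM45 and TRIM72 were lost, with an adjusted p from 0.0665 to 0.173.

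The comparisons of 12 h with 0 h and of ruptured with unruptured follicles take their group means from different arrays. Their calls come from the same fit of all groups, so each gene's variance estimate enters both. The calls are therefore not independent. Called in both comparisons, with the same direction, were 5 members: STAT3, IFITM1 and TRIM16 higher, IFIT3 and TRIM41 lower. They are 45.5% of the 11 called at 12 h and 55.6% of the 9 called at rupture, and none changed in opposite directions. Among all genes the same overlap was 845 genes, or 41.8% of those called at 12 h and 42.3% of those called at rupture, with 10 in opposite directions. The members' overlap therefore stood near that of the whole array.

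**Figure D3:**
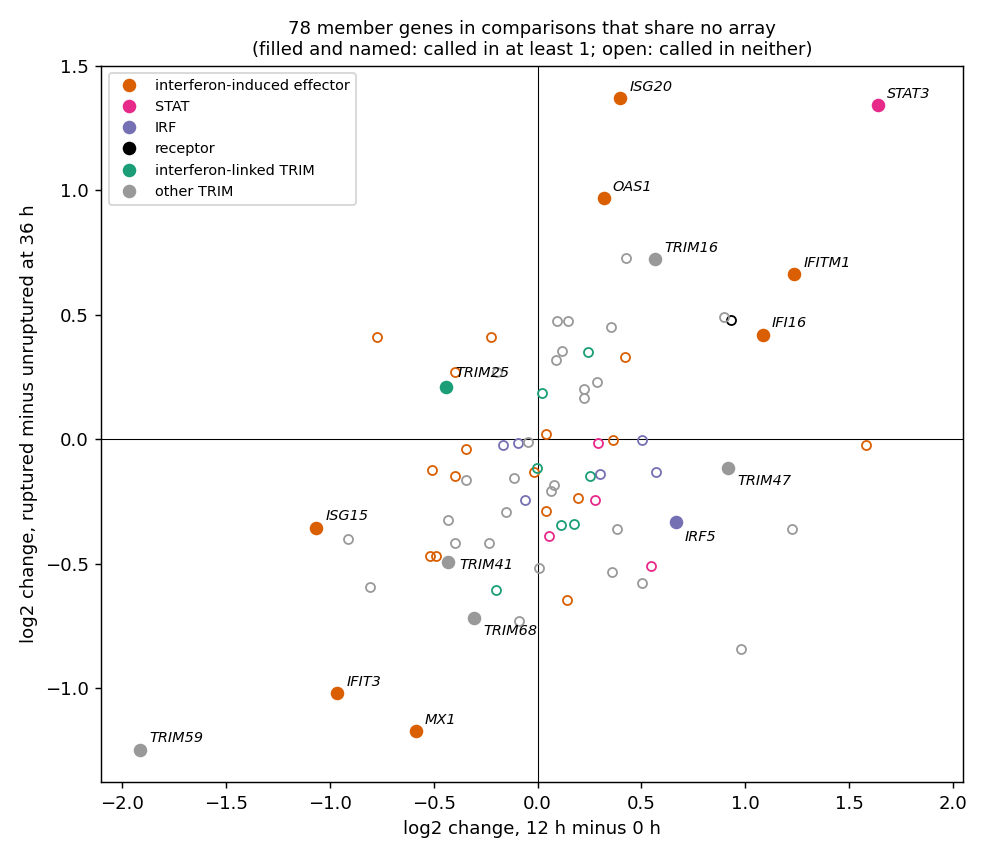
Log2 change at 12 h against 0 h (horizontal axis) and of ruptured against unruptured follicles at 36 h (vertical axis) for the 78 members, coloured by role; filled and named genes were called in at least 1 of these comparisons. STAT3 lies farthest to the upper right (1.64 and 1.34), and IFIT3 (-0.96 and -1.02) lies on the lower left.

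The values of 14 pairs of members that lie next to each other in the RefSeq gene order of the T2T-MMU8v2.0 assembly were set side by side without a test of the difference. IFIT3 changed by -0.96 at 12 h and -1.02 at rupture, and its neighbour IFIT2, on its brightest probe set, by 0.04 and 0.02. The 6 probe sets of IFIT2, none of them called, ran from -0.83 to 0.15 and from -1.15 to 0.43, as low as IFIT3 at rupture, so this pair is not read as differing. MX1 changed by -0.59 and -1.17, and MX2 by 0.36 and 0.00 (its 2 probe sets 0.36 to 0.58 and -0.60 to 0.00). STAT3 changed by 1.64 and 1.34, and the adjacent STAT5A by 0.29 and -0.02. OAS1 changed by 0.32 and 0.97, and OAS3 by -0.52 and -0.47. The 3 probe sets of OAS3 ran from -0.52 to -0.20 and from -0.66 to -0.29, and the 5 of OAS1 from 0.16 to 0.64 and from -0.35 to 1.68.

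Among 21 listed genes of nucleic acid sensing 17 were measured. Of these 3 rose at 12 h, 2 fell by 24 h, and 3 rose and 3 fell at rupture. Of all genes 14.3%, 10.9% and 14.1% passed in these steps, in either direction. The DNA sensor CGAS was 2.15 ± 0.64 (SE) higher at 12 h (limma adjusted p = 0.0413) and 2.57 ± 0.71 lower again by 24 h, at means from 2.03 to 4.60 that lie below the median probe set. AIM2, the DNA sensor of the inflammasome, rose by 1.23 ± 0.29 at 12 h and by 1.68 ± 0.31 at rupture (adjusted p = 0.00986 and 0.00205). TRAF3, an adaptor of sensor signalling, fell by 1.28 ± 0.23 by 24 h and rose by 1.19 ± 0.23 at rupture. The 3 that fell at rupture, named after their values were seen, were the RNA sensors IFIH1 (-1.07 ± 0.21) and DHX58 (-0.89 ± 0.17) and their adaptor MAVS (-0.63 ± 0.18).

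Of 35 other interferon-induced effectors 25 were measured. At 12 h 4 rose and 3 fell, by 24 h 1 rose and 2 fell, and at rupture 2 rose and 3 fell. The shares of all genes passing in either direction were 14.3%, 10.9% and 14.1%. PLSCR1, a membrane phospholipid scramblase, rose by 1.50 ± 0.23 (SE) at 12 h and 1.44 ± 0.26 at rupture, and UBE2L6, the conjugating enzyme of ISG15, by 1.38 ± 0.21 at 12 h (limma adjusted p = 0.000502, 0.00145 and 0.000355). UBE2L6 and ISG15 therefore changed in opposite directions at 12 h. TNFSF10, the death ligand TRAIL, had the signs of IFIT3: -1.09 ± 0.25 at 12 h, 1.69 ± 0.28 by 24 h and -1.08 ± 0.28 at rupture (adjusted p = 0.00957, 0.00122 and 0.0171). WARS1, a tRNA synthetase induced by interferon gamma, was 1.04 ± 0.29 lower at 24 h than at 12 h.

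Of 18 listed antigen presentation genes induced by interferon gamma 14 were measured: 1 rose at 12 h (the protease CTSS, 1.56 ± 0.40 SE, limma adjusted p = 0.0181), 1 fell by 24 h (the proteasome activator PSME2, -0.50 ± 0.14, 0.0413), and none passed at rupture. In ruptured follicles against 0 h 1 was lower, the peptide trimming enzyme ERAP1 (-0.62 ± 0.19, 0.0275). Of all genes 14.3% passed at 12 h, 10.9% by 24 h, 14.1% at rupture and 21.3% in ruptured follicles against 0 h.

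Single follicles differed across many effectors at once. Among unruptured follicles replicate 4 had the highest level in 13 of 23 effectors and the lowest in 0, whereas replicate 2 was lowest in 14. At 12 h replicate 3 was highest in 10 and replicate 4 lowest in 10. The same counts were not made over all genes, so these are not read as particular to the effectors. Without unruptured replicate 4 the calls of IFIT3 and MX1 at rupture held.

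**Figure D4:**
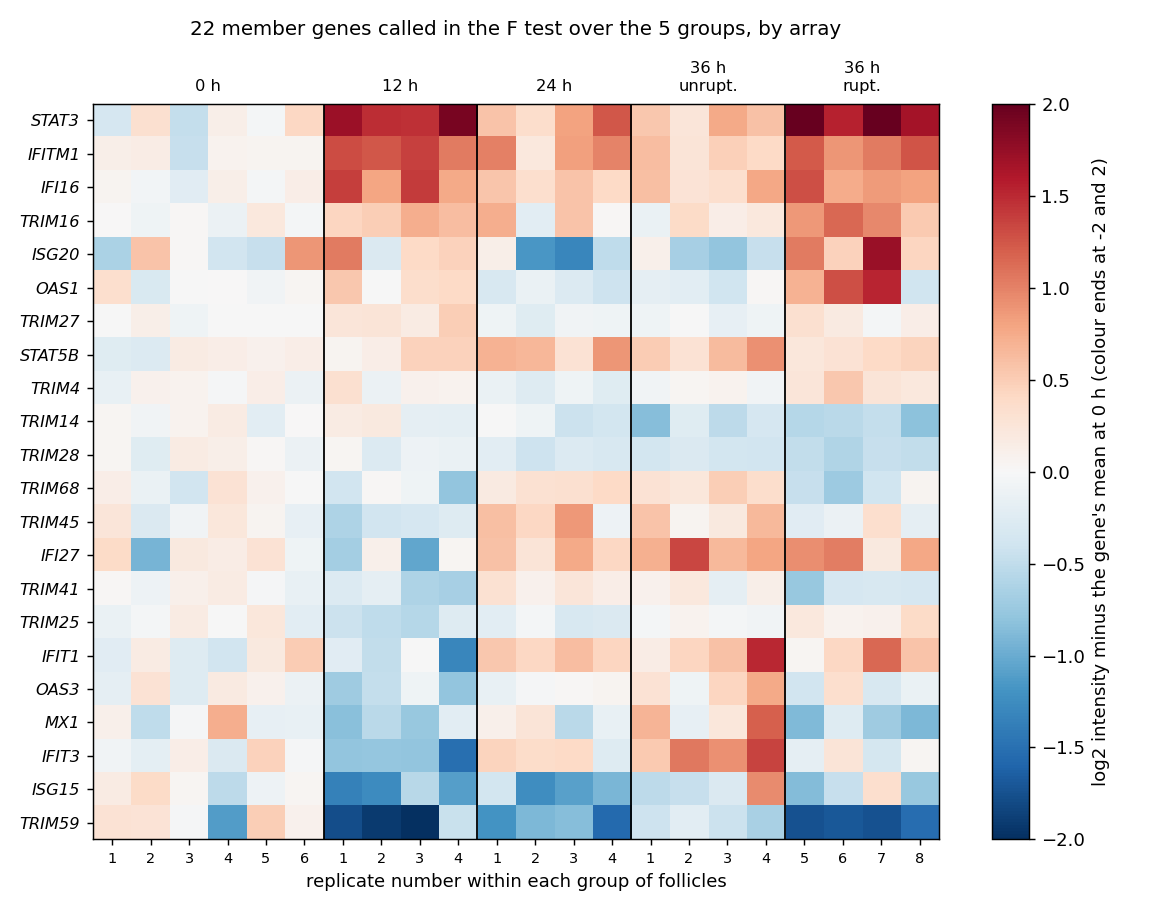
Log2 intensity minus the gene's mean at 0 h for the 22 members that passed the F test (vertical axis) in each of 22 follicles (horizontal axis, by group and replicate); red is higher and blue lower than 0 h, and colours end at -2 and 2. STAT3, IFITM1, IFI16 and TRIM16 are red in the 12 h and ruptured groups, while IFIT3 is blue at 12 h and red in unruptured follicles, most in replicate 4.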

How the data were processed

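RNA of 22 follicles was measured on Affymetrix rhesus macaque arrays. Per the submitters' processing notes the authors used RMA, of unstated version. The deposited values are intensity on a linear scale (0.0361 to 15136.6), which were taken to log2 with no pseudocount. After removal of 99 control probe sets, 52766 were tested: 24956 carry 1 gene symbol, 361 several and 27449 none. Names come from the platform annotation; RefSeq holds 76 of 78 member gene IDs.

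All 5 groups were fitted together with limma 3.58.1 (lmFit, eBayes) in R 4.3.3, with 5 contrasts and a moderated F test. P-values were Benjamini-Hochberg adjusted over all 52766 probe sets and called under 0.05. The step was tested on simulated data. The number of arrays per group limits the precision, and no scan date or batch was used.

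The members and gene lists were chosen with earlier results of these data known. Genes given with values are all members but the TRIMs, 5 TRIMs of antiviral defence, other TRIMs called with a log2 change of at least 1, the highest and lowest called TRIM of each contrast, and per pathway list and contrast up to 2 called genes with the largest change. A list's summed level is log2 of its summed intensities. Alternatives were a replicate block, the compared groups alone, 16 added before log2, quantile normalization, only the brighter probe sets and array weights. Further ones were the RNA index as covariate, the most variable probe set per gene and leaving out each of 22 arrays. All genes were refitted in these settings, but whether single calls held was followed for the members only. Calls of listed genes that are not members are given from the main fit alone.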

Additional observations from a re-analysis of the deposited data

Results flagged for a closer look

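In 235 groups of follicles (47 genes in 5 groups) a gap test marked 15 single values as far from the others of their group; chance alone marks about 1 in 20 groups. Low values at 12 h were IFIT3 in replicate 4 (7.16 against 7.88 to 7.90), GBP6 in replicate 4 (0.619) and IRF4 in replicate 3 (0.490), the last 2 from dim probe sets, and GBP2 was high in replicate 1 (7.23). At 24 h replicate 4 was high in IFNAR2 (7.57) and IRF8 (6.58) and low in IFIT3 (8.41), and TRIM27 was low in replicate 2 (8.19). Among unruptured follicles ISG15 was high in replicate 4 (6.92) and STAT2 low in replicate 2 (3.63). At 0 h the low values were IFI27 in replicate 2 (10.2), IFITM1 in replicate 3 (10.4), OAS2 in replicate 3 (4.25) and TRIM59 in replicate 4 (3.21), and IRF7 was high in replicate 6 (4.91).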

How the results depend on the processing

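The counts of called members (F test 22, then 11, 7, 0, 9 and 10 in the order 12 h against 0 h, 24 h against 12 h, unruptured 36 h against 24 h, ruptured against unruptured, ruptured against 0 h) moved by more than 1.5 times in these settings. With the replicate number as a block they were 5, 3, 1, 0, 0 and 1, and 5 of 37 calls remained. In order these are 6.41%, 3.85%, 1.28%, 0%, 0% and 1.28%, beside 12.3%, 7.18%, 5.99%, 0%, 0.0637% and 2.72% of all genes. The calls that remained were IFI16, IFITM1 and STAT3 at 12 h, IFIT3 by 24 h, and STAT3 in ruptured follicles against 0 h. All other calls given above were lost with the block, among them STAT3 at rupture (limma adjusted p = 0.387) and IFIT3 at 12 h (0.0692). Same-numbered samples did not deviate together (26 pairs, r from -0.18 to 0.17, 1 over 0.1). Such correlations cannot exclude a shared animal or batch, and the labels do not say that equal numbers pair follicles. Ruptured follicles (replicates 5 to 8) share no number with unruptured ones (1 to 4), so the block largely overlaps with that comparison. Fitted on the compared groups alone, 12 h gave 6, 24 h gave 0 and rupture gave 2. With brighter probe sets only, 12 h gave 18, 24 h gave 13 and ruptured against 0 h gave 20 of 56 members, or 32.1%, 23.2% and 35.7%, beside 28.8%, 23.7% and 37.7% of the 9719 genes tested there. With 16 added before log2 the last gave 16, or 20.5% beside 23.3% of all genes. Leaving out 1 array gave 17 to 25 for the F test and 7 to 13, 3 to 9, 0 to 0, 5 to 11 and 9 to 13 for the contrasts. The lowest were 7 at 12 h without 0 h replicate 3, 3 at 24 h without 24 h replicate 2 (4 on leaving out any of the 12 h replicates 1 and 4 or the 24 h replicates 1 and 3), and 5 at rupture without unruptured replicate 2 or ruptured replicate 5. The cause of these shifts was not tested. Of 37 calls 17 held on leaving out each array and none reversed in any of the settings; quantile normalization kept 37. Small groups of 4 or 6 arrays and dim probe sets limit what could be called.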
